A study of Mus musculus with 11 samples.

Results

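Granzymes and the other genes of cytotoxic lymphocytes were followed in the RNA-seq of mouse airway. The group held 10 genes of the 21899 listed, found by matching Ensembl identifiers to the symbols Gzma, Gzmb, Prf1, Nkg7, Fasl, Klrk1, Klrd1, Ncr1, Klrb1c and Eomes, and all 10 were found. The genes were selected on earlier results of these libraries, above all the FPKM of Gzma, the granzyme A gene, which were lower in GGsTop-treated mice than in those given vehicle. Values of the 10 genes in that comparison are therefore given as a description, without a p for each.

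The mice were wild-type young adult BALB/c males, and 11 libraries fell into 3 groups. The PBS group (n = 3, numbered 1 to 3) was not sensitised and received PBS only. The OVA/LPS/Vehicle group (n = 4, labelled 12, 34, 56 and 78) was sensitised to ovalbumin (OVA) with alum, challenged with OVA through the nose, then given the bacterial endotoxin LPS through the nose, and given vehicle into the trachea. The OVA/LPS/GGsTop group (n = 4, numbered 1 to 4) had the same OVA and LPS and received GGsTop, an inhibitor of γ-glutamyl transferase, in place of vehicle. Nonsensitised mice with GGsTop were not analysed here. Whether a label such as 12 stands for a pool of mice is not stated, so that p-values measure the spread between these libraries. The labels name the tissue as trachea, whereas the methods of the study describe airway freed of the trachea. Scgb1a1, a club cell gene, was listed at 26145 to 47905 FPKM, and Sftpc, which marks alveolar type II cells, at 3541 to 12503 FPKM. Alveolar tissue was therefore present in every library.

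Cytotoxic T cells and natural killer (NK) cells kill by releasing granules that hold granzymes, which are serine proteases, and perforin, which forms pores through which granzymes enter the target. NK cells recognise targets through the balance of activating receptors, such as NKG2D and NKp46, and inhibitory ones, such as the CD94/NKG2A pair. The T-box factors Eomes and T-bet drive this programme, and interleukin 15 keeps NK cells alive. In the lung, NK cells are resident in the normal tissue, and both NK cells and cytotoxic T cells can be drawn in by allergen or endotoxin. RNA of whole tissue cannot tell fewer such cells from less RNA in each.

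Depth and composition of the libraries bear on genes of this level. The files hold FPKM, in which fragments are divided by exon length and by the library total, and the totals they imply were 14513136 to 18632382 fragments per library. A single fragment on 1 kb of exon was worth 0.0537 to 0.0689 FPKM, and the 10 genes rested on 4 fragments (Klrb1c and Fasl) to 225 fragments (Gzma) in a library. GC-rich transcripts ran higher in some libraries than in others. The slope of log2(FPKM + 1) on transcript GC content per 10 GC points was −0.26 to −0.19 with vehicle, 0.05 to 0.11 with GGsTop, 0.06 and 0.05 in PBS 1 and 2, and 0.53 in PBS 3, which stands apart. This slope moves with the treatment, and its part in the results cannot be told apart from that of the treatment. Where the correction for GC content made or ended a call in a comparison whose p is printed, its value is given beside the deposited one. OVA/LPS/Vehicle 12 stands apart by genes of immature thymocytes. Rag1 was at 8.53 FPKM there and Dntt at 13.8 FPKM, against at most 0.0976 and 0.301 FPKM in the other 10 libraries.

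To show where these genes are read from, the promoters of the 4 genes called in a comparison with PBS are printed as RefSeq gives them for GRCm38.p6, in the direction of the gene, from 250 bases before its start to 50 bases after. Gzma, Ncr1 and Prf1 were called lower with GGsTop than in PBS, and Prf1 and Gzmb were called lower with OVA, LPS and vehicle than in PBS. Capitals mark the letters TCACAC, the core bound by T-box factors such as Eomes, or TGTGGT, the core bound by Runx factors, on either strand. The windows are chr13:113100932-113101231 on the minus strand for Gzma, chr7:4337465-4337764 on the plus strand for Ncr1, chr10:61297586-61297885 on the plus strand for Prf1 and chr14:56262285-56262584 on the minus strand for Gzmb.
Gzma: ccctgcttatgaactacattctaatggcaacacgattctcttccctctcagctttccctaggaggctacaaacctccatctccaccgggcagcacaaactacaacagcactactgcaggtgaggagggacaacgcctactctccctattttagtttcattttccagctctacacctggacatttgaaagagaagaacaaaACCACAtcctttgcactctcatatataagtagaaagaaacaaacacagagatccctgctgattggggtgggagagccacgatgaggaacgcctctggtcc
Ncr1: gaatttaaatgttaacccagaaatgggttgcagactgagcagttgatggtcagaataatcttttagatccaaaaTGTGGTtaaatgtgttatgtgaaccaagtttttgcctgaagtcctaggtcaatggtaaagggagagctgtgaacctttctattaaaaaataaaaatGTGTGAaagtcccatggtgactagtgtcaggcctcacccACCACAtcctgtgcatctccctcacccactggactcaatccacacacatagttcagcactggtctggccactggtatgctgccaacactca
Prf1: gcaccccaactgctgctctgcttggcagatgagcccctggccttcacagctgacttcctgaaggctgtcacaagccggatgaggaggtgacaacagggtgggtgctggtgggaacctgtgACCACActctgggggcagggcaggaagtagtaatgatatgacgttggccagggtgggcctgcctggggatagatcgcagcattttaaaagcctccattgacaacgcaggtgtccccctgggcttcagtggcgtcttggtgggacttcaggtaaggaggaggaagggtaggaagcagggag
Gzmb: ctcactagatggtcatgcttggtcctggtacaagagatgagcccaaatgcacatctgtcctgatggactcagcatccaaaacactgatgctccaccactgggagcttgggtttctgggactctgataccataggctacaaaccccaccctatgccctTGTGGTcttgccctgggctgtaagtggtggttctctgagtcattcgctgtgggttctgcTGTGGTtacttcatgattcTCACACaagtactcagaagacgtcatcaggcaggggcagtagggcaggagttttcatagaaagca
The T-box core was found in the windows of Gzmb, Nkg7 and Ncr1, 3 of the 9 genes for which RefSeq gave a window, and in 14.5% of 32851 promoters of the same length. The Runx core was found in 7 of the 9 and in 16.8% of the promoters. In Gzma the Runx core began 50 bases before the start, and in Ncr1 a Runx core began 41 bases before it, with the T-box core 80 bases before it. In Gzmb the T-box core lay 15 bases before the start, beside Runx cores 34 and 93 bases before it. All these distances are from the RefSeq start. GENCODE M21, which gave the gene positions printed below, places the start of Gzmb at 56262260, so that the whole Gzmb window lies upstream of that start. A match of so few letters is a description of the window, not of binding. The mice were BALB/c, whereas the reference is C57BL/6J.

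In the PBS airway, Gzma was the most abundant of the 10 genes at 12.1 ± 1.87 FPKM (SD, n = 3), a value per exon length. Nkg7 at 5.28 ± 0.912 FPKM, Klrd1 at 3.83 ± 2.86 FPKM, Ncr1 at 3.55 ± 0.813 FPKM, Prf1 at 2.87 ± 0.173 FPKM and Gzmb at 2.23 ± 0.306 FPKM followed (SD, n = 3). The libraries of Gzma and Nkg7 did not overlap, nor did those of Prf1 and Gzmb, whereas Nkg7, Klrd1 and Ncr1 overlapped in this order, and so did Klrd1 and Prf1. Eomes, Klrk1, Fasl and Klrb1c lay between 0.398 and 0.534 FPKM on average and could not be ordered. With a minimum mean of 0.5 FPKM over all libraries, 14004 genes entered the fit, among them 6 of the 10, namely Gzma, Gzmb, Prf1, Nkg7, Klrd1 and Ncr1. The other 4 were compared by exact permutation tests.

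**Figure D1:**
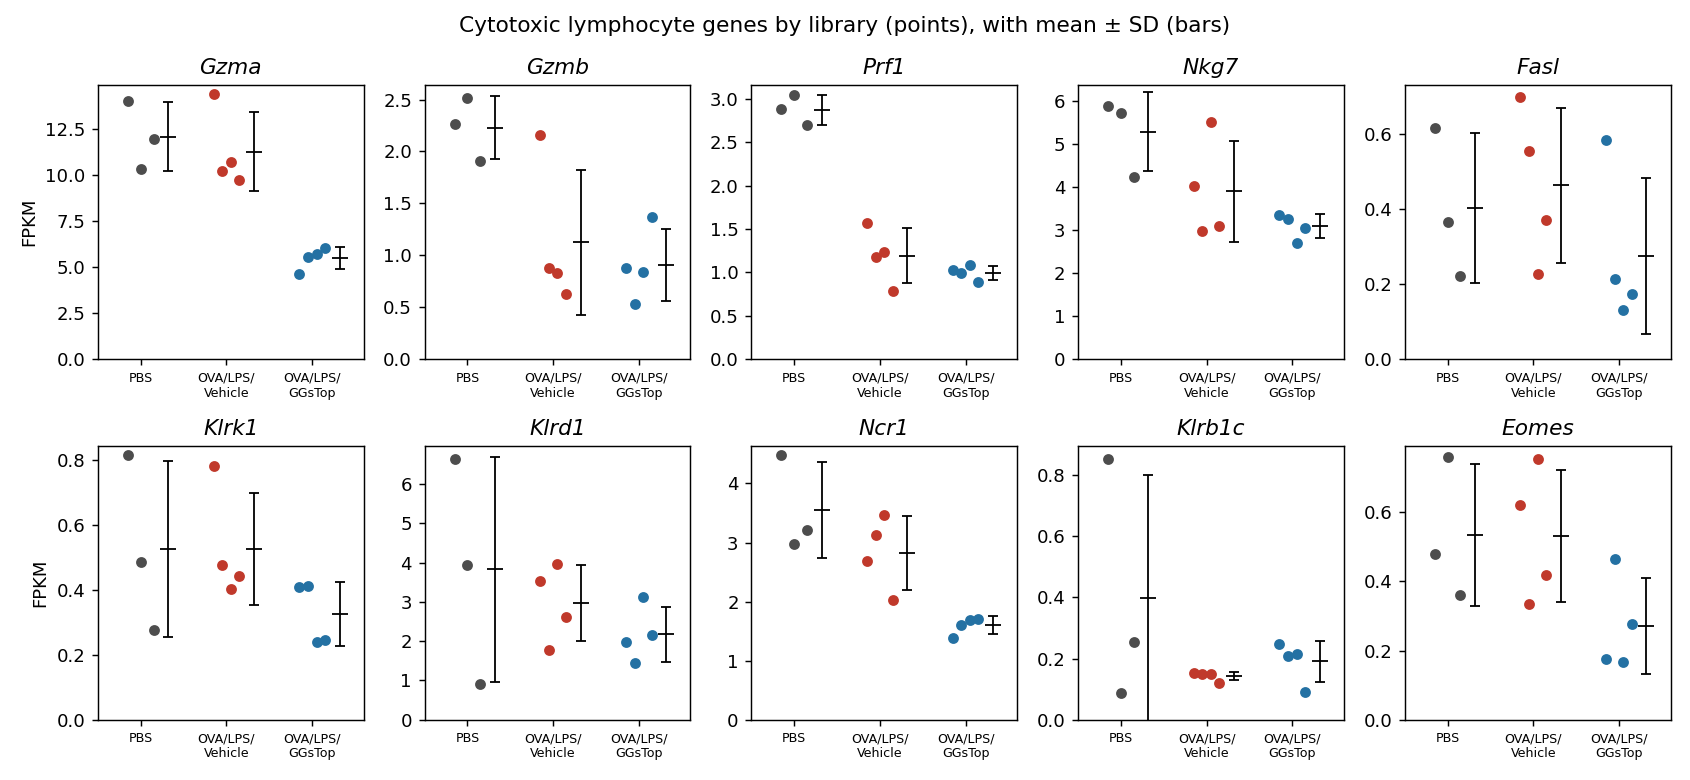
FPKM of the 10 genes (vertical axes, from 0) in the 3 groups; points are libraries in the order of their labels, and the bars beside them are the mean ± SD. The 4 OVA/LPS/GGsTop libraries of Gzma, at 4.62 to 6.04 FPKM, sit below all libraries of the other groups, whereas Prf1 is already low in the OVA/LPS/Vehicle group.

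Between the groups, Prf1 and Gzmb were called lower after OVA and LPS than in PBS, and their libraries with GGsTop and with vehicle overlapped. Gzma and Ncr1 overlapped PBS after OVA and LPS with vehicle, and were lower with GGsTop. After GC correction Ncr1 was called lower with vehicle than in PBS, and its fold change with GGsTop against vehicle was −0.35 in place of −0.54. Whether these genes differed from each other in their changes was not tested. Of the 6 genes fitted with limma, 2 fell and 0 rose in the OVA/LPS/Vehicle group against PBS at an adjusted p under 0.05, where 22.1% of all genes tested fell and 15.9% rose. The share of called genes among the 6 is near that background. In 1 of them, Prf1, every OVA/LPS/Vehicle library was below every PBS library, as in 25.4% of all genes tested. In the OVA/LPS/GGsTop group against the OVA/LPS/Vehicle group, 2 of the 6 were called lower and 0 higher, against 1.81% and 6.9% of all genes. Gzma and Ncr1 had no overlap between these groups, as in 12.4% of all genes in that direction. Since this comparison chose Gzma, nothing is read from those counts. In the OVA/LPS/GGsTop group against PBS, 3 of the 6 fell and 0 rose, against 0.821% and 2.06% of all genes, and 5 lay below PBS without overlap, against 7.54%. This comparison shares its GGsTop libraries, and that of vehicle with PBS its vehicle libraries, with the one that chose Gzma. None of the 6 had a positive fold change in any of the 3 comparisons, and none was called higher at an unadjusted p under 0.05 or with limma voom. The median log2 fold changes of the 6 were −0.32, −0.27 and −0.79 in the order given, beside −0.01, 0.03 and 0.01 over all genes tested.

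Gzma (ENSMUSG00000023132; GRCm38 chromosome 13, 113093825 to 113100981, minus strand) encodes granzyme A, a tryptase of the granules that NK cells carry in abundance. It was listed at 14.06, 10.32 and 11.95 FPKM in PBS 1 to 3, at 14.4, 10.3, 10.7 and 9.76 FPKM in OVA/LPS/Vehicle 12, 34, 56 and 78, and at 4.62, 5.55, 5.73 and 6.04 FPKM in OVA/LPS/GGsTop 1 to 4. The first 2 groups overlapped, and the 4 GGsTop libraries lay below every other library. The fragments behind these values were 161 to 224 per PBS library, 163 to 225 per OVA/LPS/Vehicle library and 70 to 91 per OVA/LPS/GGsTop library. With GGsTop the mean FPKM was 2.06-fold lower than with vehicle, a log2 fold change of −0.91 (SE 0.13, n = 4 and 4), which became −0.71 after GC correction and ranged from −1.02 to −0.71 over 21 alternative analyses. Against PBS, OVA and LPS with vehicle gave −0.10 (SE 0.15, limma adjusted p = 0.606), and this changed sign to 0.01 without PBS 1. GGsTop-treated mice were lower than PBS by 1.01 on the log2 scale (SE 0.15, limma adjusted p = 0.0100). Without PBS 1 this adjusted p was 0.055, and with the replicate block it was 0.0508. Over 22 alternatives in limma it ran from 0.000301 to 0.055. Both comparisons with PBS share libraries with the one that chose Gzma, so that their p-values are not independent of that choice.

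Gzmb (ENSMUSG00000015437; chromosome 14, 56258838 to 56262260, minus strand) encodes granzyme B, which cleaves caspases and Bid in the target cell. Its FPKM were 2.27, 2.52 and 1.91 in PBS, 2.16, 0.881, 0.830 and 0.6251 with OVA, LPS and vehicle, and 0.879, 0.528, 0.839 and 1.36 with GGsTop. The PBS group was the highest, and OVA/LPS/Vehicle 12, the library with thymocyte genes, was the only treated library that reached its range. The fold change in the OVA/LPS/Vehicle group against PBS was −0.65 (SE 0.22, limma adjusted p = 0.0363), and −0.81 after GC correction (limma adjusted p = 0.0273). Without OVA/LPS/Vehicle 12 it was −0.86 with an adjusted p of 0.00791 in limma. The call was lost when PBS 1, 2 or 3 or OVA/LPS/Vehicle 34, 56 or 78 was left out, with limma adjusted p of 0.0806, 0.077, 0.0678, 0.0803, 0.0853 and 0.0919, and with only the 2 groups compared (0.0541). Over 21 alternatives the adjusted p in limma ran from 0.00146 to 0.0919. GGsTop against vehicle gave −0.13 (SE 0.20), with overlapping libraries, and 0.082 without OVA/LPS/Vehicle 12. Against PBS all 4 GGsTop libraries were lower, by 0.78 on average (log2 fold change −0.78, SE 0.22), which did not pass the test (limma adjusted p = 0.0766). Without OVA/LPS/Vehicle 12, which enters the shared estimate of spread, it did (limma adjusted p = 0.0368), and with array weights too (0.00754).

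Prf1 (ENSMUSG00000037202; chromosome 10, 61297833 to 61304680, plus strand) encodes perforin. PBS libraries were at 2.88, 3.05 and 2.70 FPKM, OVA/LPS/Vehicle libraries at 1.57, 1.18, 1.24 and 0.787 FPKM, and OVA/LPS/GGsTop libraries at 1.03, 0.987, 1.08 and 0.889 FPKM. All 8 treated libraries lay below all PBS libraries, and the treated groups overlapped. Perforin fell 2.41-fold in mean FPKM with OVA and LPS, with a log2 fold change of −0.83 (SE 0.12, limma adjusted p = 0.00348). It held an adjusted p under 0.05 in all 21 alternatives, from 7.31e-05 to 0.0131 in limma, with −0.63 after GC correction. With GGsTop against vehicle the fold change was −0.13 (SE 0.12). Against PBS the GGsTop group fell by 0.96 (SE 0.12, limma adjusted p = 0.00607), and the only alternative of 22 that ended this call was the replicate block, with an adjusted p of 0.0505 in limma.

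Nkg7 (ENSMUSG00000004612; chromosome 7, 43437073 to 43438249, plus strand) encodes a granule membrane protein that takes part in degranulation. It was listed at 5.88, 5.72 and 4.23 FPKM in PBS, at 4.02, 2.98, 5.49 and 3.08 FPKM with vehicle and at 3.34, 3.24, 2.70 and 3.03 FPKM with GGsTop. The fold changes were −0.38 against PBS with vehicle (SE 0.17, limma adjusted p = 0.0981), −0.24 with GGsTop against vehicle (SE 0.16) and −0.61 with GGsTop against PBS (SE 0.17, limma adjusted p = 0.0740). Neither PBS comparison passed the test, although every GGsTop library was below every PBS library. Without OVA/LPS/Vehicle 56, the highest of its group, the first was −0.52 with a limma adjusted p of 0.0275. It passed too at the same FPKM total (0.0319) and with array weights (0.00345), and so did the last with array weights (0.00872).

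Fasl (ENSMUSG00000000817; chromosome 1, 161780689 to 161788495, minus strand), the ligand of the death receptor Fas, was at 0.222 to 0.617 FPKM in PBS, 0.227 to 0.699 FPKM with vehicle and 0.131 to 0.583 FPKM with GGsTop, or 4 to 21 fragments per library. The groups overlapped throughout. The exact two-sided permutation test gave p = 0.686 for vehicle and p = 0.343 for GGsTop against PBS, where 3 libraries against 4 cannot go below 0.0571.

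**Figure D2:**
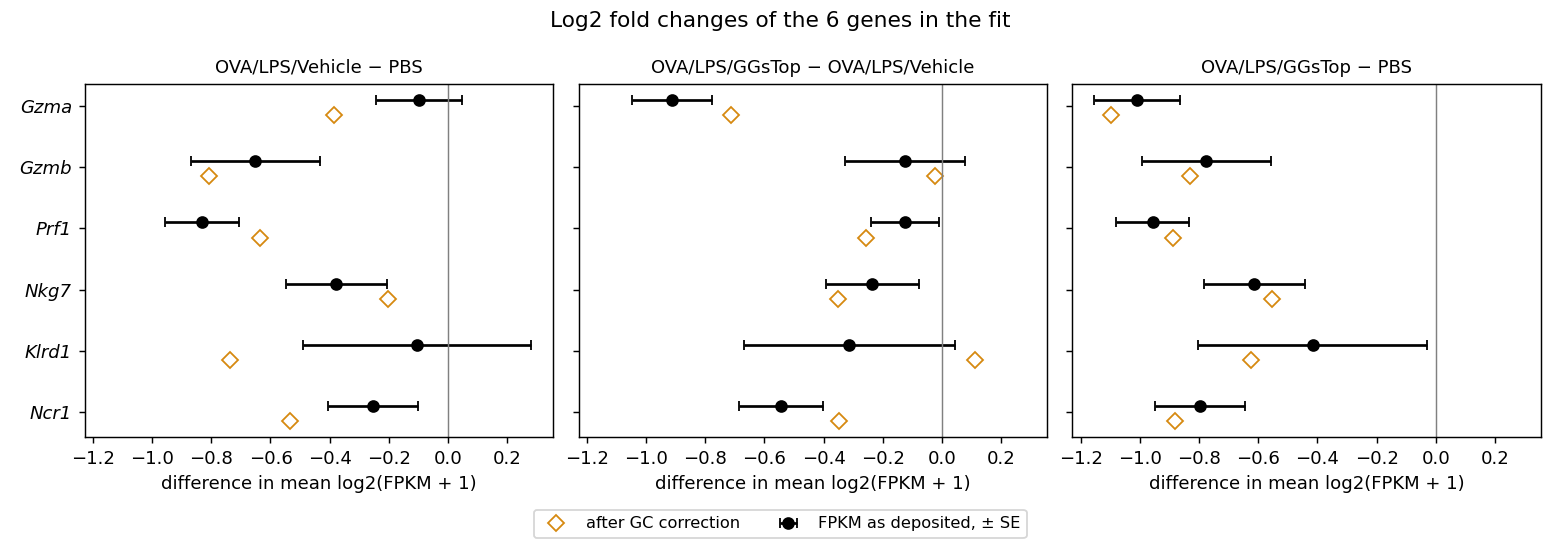
Log2 fold changes (horizontal axes, difference in mean log2(FPKM + 1)) of the 6 genes in the limma fit for the 3 comparisons; filled circles with bars are deposited FPKM ± SE, open diamonds are GC-corrected values. Gzma at −0.91 and Ncr1 at −0.54 lead the comparison of GGsTop with vehicle, Prf1 at −0.83 and Gzmb at −0.65 that of vehicle with PBS, and Klrd1 moves most with the correction.

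The receptors were led by Ncr1 (ENSMUSG00000062524; chromosome 7, 4337724 to 4345164, plus strand), which encodes NKp46, an activating receptor found on NK cells and some innate lymphoid cells. Its levels were 4.48, 2.97 and 3.21 FPKM in PBS, 2.68, 3.12, 3.46 and 2.02 FPKM with vehicle, and 1.38, 1.61, 1.69 and 1.71 FPKM with GGsTop. As with Gzma, the 4 GGsTop libraries lay below all others, and PBS and vehicle overlapped. GGsTop against vehicle gave −0.54 (SE 0.14), a 1.77-fold lower mean, and −0.35 after GC correction. OVA and LPS with vehicle gave −0.25 against PBS (SE 0.15, limma adjusted p = 0.201), but −0.54 after GC correction, with an adjusted p of 0.0280 in limma, and 0.00666 to 0.589 over 21 alternatives. GGsTop-treated mice were lower than PBS by 0.80 (SE 0.15, limma adjusted p = 0.0240). This call was lost without PBS 1 (limma adjusted p = 0.102), PBS 3 (0.0703), OVA/LPS/GGsTop 1 (0.0775) or OVA/LPS/GGsTop 2 (0.0617), with the replicate block (0.0788) and with only the 2 groups compared (0.0839).

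Klrd1 (ENSMUSG00000030165; chromosome 6, 129591782 to 129598775, plus strand) encodes CD94, which pairs with NKG2 proteins. It varied more within groups than between them. PBS 1, 2 and 3 were at 6.63, 3.93 and 0.922 FPKM, vehicle libraries at 3.53, 1.78, 3.97 and 2.62 FPKM, and GGsTop libraries at 1.97, 1.45, 3.12 and 2.16 FPKM. PBS 3, the library whose GC slope stands apart, had the lowest value of all, and the GC content of the Klrd1 transcript, 35.8%, is well below the median of 49.95% (genes tested). Whether the slope accounts for it was not tested. The fold changes of −0.10 and −0.42 against PBS (limma adjusted p = 0.845 and 0.559, SE 0.39) became −0.74 and −0.62 after GC correction, and that of GGsTop against vehicle turned from −0.31 to 0.11. Without PBS 1 the fold changes against PBS were 0.33 and 0.02, and with array weights −0.96 and −1.19 (limma adjusted p = 0.0054 and 0.00999).

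Klrk1 (ENSMUSG00000030149; chromosome 6, 129610323 to 129623864, minus strand), the NKG2D gene, was at 0.813, 0.485 and 0.276 FPKM in PBS 1 to 3, 0.781, 0.476, 0.402 and 0.442 FPKM with vehicle and 0.407, 0.412, 0.238 and 0.245 FPKM with GGsTop. It lies next to Klrd1 in the NK gene complex, and its transcript has 32.7% GC. Like Klrd1, Gzmb and Fasl, and like Prf1, Nkg7 and Eomes with 53.1% to 53.9% GC, it was lowest of PBS in PBS 3. The exact permutation test gave p = 1 for vehicle and p = 0.229 for GGsTop against PBS. Klrb1c (ENSMUSG00000030325; chromosome 6, 128778485 to 128789215, minus strand), which encodes the NK1.1 antigen in C57BL/6 mice, was at 0.852 FPKM in PBS 1, 0.0871 FPKM in PBS 2 and 0.254 FPKM in PBS 3, and at 0.0913 to 0.247 FPKM in the treated libraries. Only PBS 1 stood above the rest, and no group difference passed the exact permutation test (p = 0.286 and 0.457 against PBS). The receptor genes of this complex differ between mouse strains, and BALB/c mice lack the NK1.1 epitope, so that fragments on the C57BL/6J reference may be undercounted. Its exons share 413 bases with the model Gm44511 on the same strand, which was listed at 0.

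Eomes (ENSMUSG00000032446; chromosome 9, 118478212 to 118486132, plus strand), the T-box factor of mature NK cells, was at 0.479, 0.761 and 0.362 FPKM in PBS, 0.621, 0.335, 0.755 and 0.418 FPKM with vehicle and 0.176, 0.464, 0.168 and 0.276 FPKM with GGsTop. The mean with GGsTop was 1.96-fold lower than with vehicle, with overlapping libraries. Against PBS the exact permutation test gave p = 0.914 for vehicle and p = 0.114 for GGsTop. A stretch of 118 exonic bases is shared with Gm33460 on the opposite strand, and no strand setting is stated.

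Over all 10 genes, the mean with GGsTop was below the mean with vehicle in 9, the exception being Klrb1c, and below the PBS mean in 10. The mean with vehicle was below PBS in 8. Of all 14004 genes tested, 6457, 6855 and 7151 had a negative log2 fold change in these comparisons, in the order given. The first comparison chose Gzma, and nothing is read from these counts. Within the OVA/LPS/Vehicle group, library 12 had the highest value of 6 genes (Gzma, Gzmb, Prf1, Klrk1, Klrb1c and Fasl), and library 56 that of Nkg7, Klrd1, Ncr1 and Eomes. Across the 11 libraries, the 15 pairs among the 6 fitted genes had Pearson correlations of log2(FPKM + 1) from 0.324 (Prf1 and Klrd1) to 0.888 (Gzma and Ncr1), with a median of 0.627. These points share the libraries, their groups and their GC slopes, so that the coefficients describe the pattern and are not tested.

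The ratio of Gzma to Prf1 within a library does not depend on how libraries are scaled. It was 4.88, 3.39 and 4.43 in PBS 1 to 3, 9.17, 8.72, 8.66 and 12.4 in OVA/LPS/Vehicle 12, 34, 56 and 78, and 4.50, 5.62, 5.31 and 6.80 in OVA/LPS/GGsTop 1 to 4. The OVA/LPS/Vehicle libraries stood above all others. Perforin lay below all PBS libraries there while granzyme A overlapped PBS, and both lay below PBS with GGsTop. The ratio of Gzma to Gzmb was 4.10 to 6.27 in PBS and 6.69 to 15.6 with vehicle, without overlap, and 4.43 to 10.5 with GGsTop, which overlapped both. The Gzma transcript has 44.1% GC and that of Prf1 has 53.6%. After GC correction the fold changes of Gzma and Prf1 with OVA and LPS were −0.38 and −0.63, closer than the −0.10 and −0.83 before it. The ratio was formed after the values were seen.

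**Figure D3:**
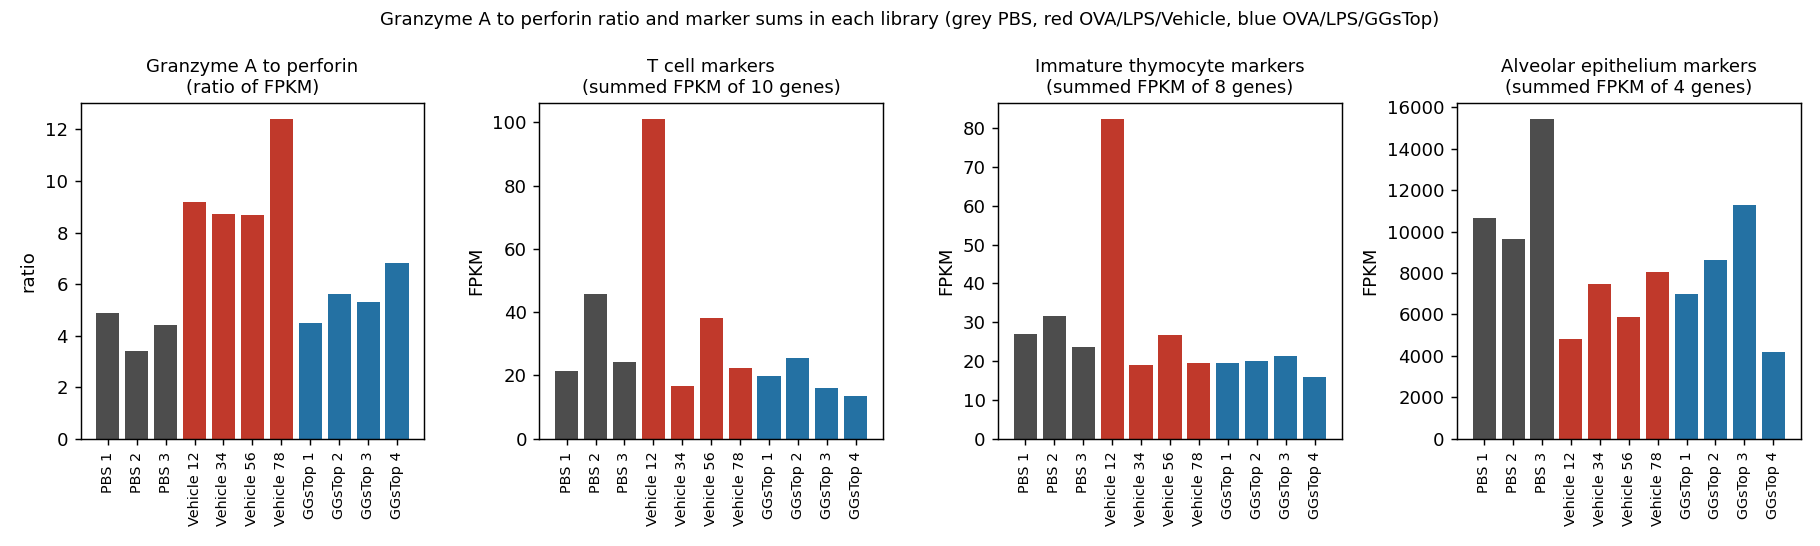
Bars from 0 show, for each of the 11 libraries (horizontal axis), the ratio of Gzma to Prf1 FPKM and the summed FPKM of T cell, immature thymocyte and alveolar epithelium markers. The ratio is at least 8.66 in every vehicle library and at most 6.80 elsewhere, and Vehicle 12 holds by far the highest T cell and thymocyte sums.

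Genes whose pattern was most like that of Gzma across the 11 libraries were Smc1a (Pearson correlation 0.953), Arntl (0.950), Stk4 (0.929), Sox4 (0.920), Ssrp1 (0.904), Zfp36l1 (0.899), Serpinb1a (0.891) and Ncr1 (0.888). Arntl, the clock gene that encodes BMAL1, was at 5.19 to 5.89 FPKM in PBS, 3.40 to 4.81 FPKM with vehicle and 1.17 to 2.26 FPKM with GGsTop. Genes most like the mean of the 6 fitted genes were Scnm1 (0.918), Ripor2 (0.899), Parp11 (0.891), Nemp2 (0.890), Tdrp (0.886), 3110009E18Rik (0.880), Fam169b (0.871) and Ets1 (0.870). Of these 16, Ncr1 is a gene of the group and Ets1 a factor needed for NK cells, and the correlations share the limits given above.

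Beyond the 10 genes, 82 genes on 9 lists of the cytotoxic pathway were matched, and 54 were in the fit. In the OVA/LPS/Vehicle group against PBS, 7 fell (Ctsw, Unc13d, Stx11, Stxbp2, Ets1, Il2rb and Il12a) and 4 rose (Srgn, Cd226, Zeb2 and Id2) at a limma adjusted p under 0.05. These are 13% and 7.41% of the 54, below the 22.1% and 15.9% of all genes. With GGsTop against vehicle, 5 fell (Serpinb9, Klri1, Cd226, Zeb2 and Id2) and Unc13d rose, or 9.26% and 1.85% beside 1.81% and 6.9% of all genes. Against PBS, GGsTop-treated mice were lower in 6 (Ctsw, Stx11, Serpinb9, Ets1, Il2rb and Il12a) and higher in 0 (1 at an unadjusted p under 0.05 in limma), where the 6 are 11.1% beside 0.821% of all genes. After GC correction, 10 of the 54 fell and 1 rose in the OVA/LPS/Vehicle group against PBS, where 1869 of all 14004 genes fell and 1138 rose. With GGsTop against vehicle 0 were called by limma (9 at an unadjusted p under 0.05, and 4 by limma voom without the correction), where 60 of all genes fell and 251 rose. With GGsTop against PBS 9 fell and 1, Gzmm, rose, where 188 of all genes fell and 421 rose.

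Of the other granzymes, 5 of 8 were listed at 0 in every library, and Gzmc was at 0 in all but the vehicle group. Gzmm, granzyme M, was at 0.657 to 1.28 FPKM in PBS, 1.12 to 1.49 FPKM with vehicle and 1.40 to 2.24 FPKM with GGsTop, all GGsTop libraries being above PBS. Its fold change against PBS was 0.50 (SE 0.15, limma adjusted p = 0.0937), the opposite sign of Gzma. After GC correction it was 0.48 with vehicle and 0.61 with GGsTop against PBS (limma adjusted p = 0.0316 and 0.0343). Gzmk was at 0.143 to 0.669 FPKM with overlapping groups.

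Among the 12 genes of granule maturation, release and inhibition, 4 fell and 1 rose after OVA and LPS. Unc13d, which encodes the priming factor Munc13-4, fell with OVA and LPS. Its level was 21.3 ± 7.36 FPKM in PBS, 7.58 ± 0.305 FPKM with vehicle and 12.4 ± 1.74 FPKM with GGsTop (mean ± SD, n = 3, 4 and 4). Its fold changes were −1.33 for vehicle against PBS (SE 0.18, limma adjusted p = 0.00337) and 0.64 for GGsTop against vehicle (SE 0.17, limma adjusted p = 0.0427). The latter became 0.37 after GC correction (limma adjusted p = 0.109). Stx11, the syntaxin of granule fusion, was at −0.73 for vehicle (limma adjusted p = 0.0112) and −0.90 for GGsTop against PBS (limma adjusted p = 0.0273). Its partner Stxbp2, Munc18-2, fell by 0.47 with vehicle (limma adjusted p = 0.0232), and was at −0.25 after GC correction (limma adjusted p = 0.124). Ctsw, the cathepsin of NK cells and cytotoxic T cells, fell in both treated groups. It was at 4.38 ± 0.549 FPKM in PBS, 2.28 ± 0.909 FPKM with vehicle and 1.89 ± 0.348 FPKM with GGsTop (mean ± SD, n = 3, 4 and 4), with fold changes of −0.75 and −0.90 against PBS (limma adjusted p = 0.0137 and 0.0353). After GC correction the first was −0.50 (limma adjusted p = 0.0822). Srgn, the proteoglycan serglycin, to which granzymes are bound in granules of many leukocytes, rose by 0.52 with vehicle (limma adjusted p = 0.0303), and by 0.16 after GC correction (limma adjusted p = 0.400). Serpinb9, an inhibitor of granzyme B, was at 34.7 ± 5.44 FPKM in PBS, 29.3 ± 2.55 FPKM with vehicle and 20.1 ± 3.70 FPKM with GGsTop (mean ± SD, n = 3, 4 and 4). It fell by 0.53 with GGsTop against vehicle (SE 0.14, limma adjusted p = 0.0440) and by 0.76 against PBS (SE 0.15, limma adjusted p = 0.0293). After GC correction the former was −0.25 (limma adjusted p = 0.351), and vehicle against PBS went from −0.23 to −0.63 (limma adjusted p = 0.251 and 0.0257). Unc13d, Stx11, Stxbp2, Srgn and Serpinb9 are expressed well beyond lymphocytes.

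Of 20 other NK cell receptor genes, 10 were in the fit and 1 was listed at 0. Cd226, which encodes DNAM-1, rose with OVA and LPS and fell with GGsTop. It was at 1.07 ± 0.452 FPKM in PBS, 2.40 ± 0.320 FPKM with vehicle and 0.999 ± 0.227 FPKM with GGsTop (mean ± SD, n = 3, 4 and 4). The fold changes were 0.74 (SE 0.16, limma adjusted p = 0.00801) and −0.77 (SE 0.15, limma adjusted p = 0.0204). After GC correction they were 0.09 and −0.34, with limma adjusted p of 0.589 and 0.0961. Klri1, a receptor of the same complex as Klrd1, was at 0.643 to 1.28 FPKM with vehicle and 0.164 to 0.454 FPKM with GGsTop, without overlap, with a fold change of −0.55 (SE 0.13, limma adjusted p = 0.0335) that was −0.18 after GC correction (limma adjusted p = 0.458). Fcgr3 and Klra3, the highest of the rest with Cd226, passed in no comparison. Of the 4 receptor adaptors 0 passed in limma, also at an unadjusted p under 0.05 and with limma voom, among them Tyrobp and Fcer1g, which are shared with myeloid cells. Of 8 ligands of NKG2D on target cells, 5 were matched and Ulbp1 alone was in the fit, with a limma adjusted p of 0.202, 0.578 and 0.647 in the 3 comparisons. Raet1a, Raet1b and Raet1c were not analysed here.

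Among 10 transcription factors, Ets1 fell in both treated groups. Its FPKM were 47.4 ± 6.78 in PBS, 34.2 ± 4.47 with vehicle and 26.4 ± 5.17 with GGsTop (mean ± SD, n = 3, 4 and 4), with fold changes against PBS of −0.46 and −0.83 (limma adjusted p = 0.0491 and 0.0284). Id2, required for NK cells and innate lymphoid cells, and Zeb2, a factor of late maturation that macrophages also use, went the other way. They rose with OVA and LPS by 0.44 and 0.38 (limma adjusted p = 0.00981 and 0.0370) and fell with GGsTop against vehicle by 0.55 and 0.52 (limma adjusted p = 0.0186 and 0.0288). After GC correction Id2 was at 0.22 and −0.40 (limma adjusted p = 0.185 and 0.0700) and Zeb2 at −0.09 and −0.20 (limma adjusted p = 0.420 and 0.143). Tbx21, which encodes T-bet, was at 1.04 to 1.45 FPKM in PBS, 0.241 to 0.933 FPKM with vehicle and 0.217 to 0.694 FPKM with GGsTop. It lay below PBS in all 8 treated libraries without passing the test (fold changes −0.43 and −0.63, limma adjusted p = 0.0738 and 0.0766). Such lack of overlap held for 25.4% of all genes with vehicle and 7.54% with GGsTop. After GC correction the fold changes were −0.04 and −0.51 (limma adjusted p = 0.885 and 0.122). This gene was singled out after its values were seen.

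Among 11 cytokines and receptors that drive these cells, Il2rb, the receptor chain for interleukins 2 and 15, was lower in both treated groups. Its FPKM were 4.46 ± 0.687 in PBS, 2.59 ± 0.645 with vehicle and 2.43 ± 0.248 with GGsTop (mean ± SD, n = 3, 4 and 4). Its fold changes against PBS were −0.61 and −0.67 (limma adjusted p = 0.0105 and 0.0380), and the first was −0.40 after GC correction (limma adjusted p = 0.0737). Il12a, the p35 chain of interleukin 12, fell by 0.51 and 0.74 (limma adjusted p = 0.0339 and 0.0410). Il15 itself was at 3.06 ± 0.333, 3.23 ± 0.472 and 2.67 ± 0.730 FPKM in the 3 groups (SD, n = 3, 4 and 4), and did not pass in any comparison (limma adjusted p = 0.802, 0.334 and 0.584). It too was singled out after its values were seen. Of the 6 effector cytokines and chemokines, Ifng and Xcl1 were below the minimum level, which left 4 in the fit. These 4 and the 6 genes of the death receptor and caspase pathway held 0 called genes in limma and in limma voom. At an unadjusted p under 0.05 the former had 1, 1 and 2 and the latter 1, 2 and 1 in the 3 comparisons. Tnfsf10 and Ccl5, the highest of the former, had fold changes of −0.79 and −0.55 with GGsTop against vehicle (limma adjusted p = 0.1004 and 0.226). Casp8 and Fas, the highest of the latter, had −0.40 and −0.14 (limma adjusted p = 0.0966 and 0.599).

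**Figure D4:**
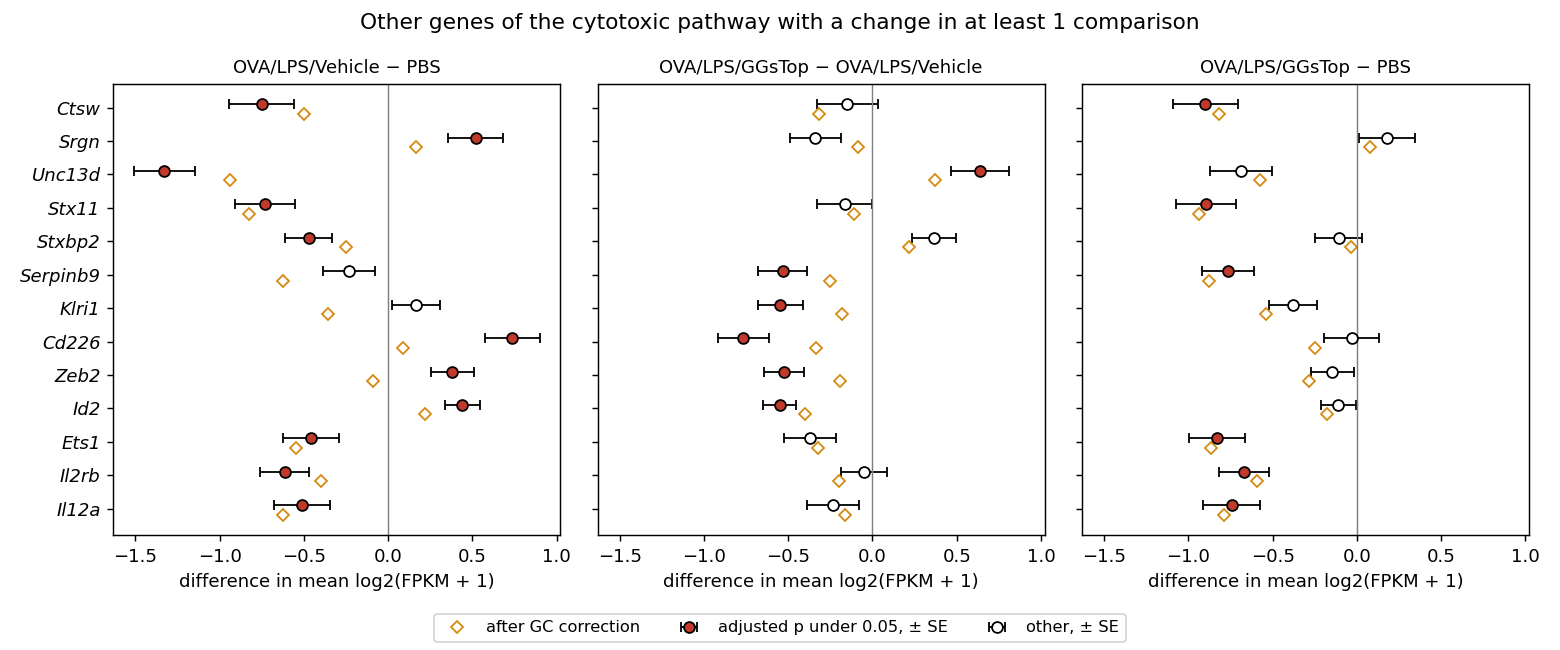
Log2 fold changes (horizontal axes, difference in mean log2(FPKM + 1)) of the 13 other cytotoxic pathway genes called in at least 1 of 3 comparisons; circles with bars are deposited FPKM ± SE, red where the limma adjusted p was under 0.05, and open diamonds are GC-corrected. Unc13d at −1.33 is the lowest, and Cd226, Zeb2 and Id2 are higher with vehicle and lower with GGsTop before the correction.

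With single libraries left out, 7 to 14 of these 54 genes were called in the OVA/LPS/Vehicle group against PBS, 7 without OVA/LPS/Vehicle 34 and 7 without 78. Ctsw, Unc13d, Stx11, Il2rb, Cd226 and Id2 kept an adjusted p under 0.05 in limma in each of the 11 fits. In GGsTop against vehicle the number was 0 to 7, with 0 without OVA/LPS/Vehicle 34 or OVA/LPS/GGsTop 1, 1 without OVA/LPS/Vehicle 56 or OVA/LPS/GGsTop 3, 2 without OVA/LPS/Vehicle 78 or OVA/LPS/GGsTop 2, and 3 without OVA/LPS/Vehicle 12. At an unadjusted p under 0.05 there were 10 to 14 in these fits. In GGsTop against PBS it was 0 to 9, with 0 without PBS 1, PBS 3 or OVA/LPS/GGsTop 1, 1 without OVA/LPS/GGsTop 2, 2 without OVA/LPS/Vehicle 78, and 3 without OVA/LPS/Vehicle 56 or OVA/LPS/GGsTop 4, whereas 15 to 18 had an unadjusted p under 0.05. The replicate block left 0 of the 54 called against PBS, with 16 at an unadjusted p under 0.05. No gene named for a call in the last 2 comparisons kept it in every fit. Calls over all genes moved too when libraries were left out. Without OVA/LPS/GGsTop 1, 4 genes were lower and 20 higher in GGsTop against vehicle, in place of 254 and 966. Without PBS 1, 8 were lower and 21 higher in GGsTop against PBS, in place of 115 and 288.

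Markers of other cells were read beside these genes. The 10 T cell markers, none of which was listed at 0, summed to 21.4 to 45.8 FPKM in PBS, 16.6 to 100.9 FPKM with vehicle and 13.4 to 25.5 FPKM with GGsTop. All 10 were lower with GGsTop than with vehicle, as were 6457 of all 14004 genes tested. Their median log2 fold change was −0.58, and 0 passed the test in limma (1 at an unadjusted p under 0.05, 0 with limma voom). The highest sum was that of OVA/LPS/Vehicle 12, and without this library the vehicle group ended at 38.1 FPKM. Lck and Cd8b1, the highest of the list, were at 3.95 to 20.7 and 1.66 to 21.1 FPKM with vehicle and at 3.94 to 5.90 and 0.820 to 2.602 FPKM with GGsTop. The 6 B cell markers, led by Cd79a and Cd79b, summed to 101.4 to 112.6 FPKM in PBS, 38.4 to 108 FPKM with vehicle and 36.0 to 67.9 FPKM with GGsTop, and the 4 pan-leukocyte genes, led by Laptm5 and Coro1a, to 129 to 170, 109 to 189 and 98.9 to 149 FPKM. No gene of either list passed in limma. At an unadjusted p under 0.05 there were 1, 2 and 5 B cell genes and 0, 1 and 1 pan-leukocyte genes in vehicle against PBS, GGsTop against vehicle and GGsTop against PBS, and limma voom called 1 B cell gene in the comparison of vehicle with PBS. The alveolar markers, led by Sftpc and Sftpb, summed to 9636 to 15410 FPKM in PBS, 4823 to 8031 FPKM with vehicle and 4177 to 11272 FPKM with GGsTop. These sums were lower in all vehicle libraries than in PBS, and those with GGsTop overlapped PBS. In vehicle against PBS, Sftpb fell by 1.81 (limma adjusted p = 0.00509) and Ager by 0.94 (limma adjusted p = 0.0315). Ager was at −0.54 after GC correction (limma adjusted p = 0.181). Sftpc at −0.78 and Lamp3 at 0.14 did not pass (limma adjusted p = 0.103 and 0.669). The part of lymphocyte and alveolar content in the levels of the 10 genes was not tested.

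The other marker lists held few called genes. Of the 8 immature thymocyte markers, with Tcf7 and Cd1d1 the highest, 4 were in the fit. Of these, 0 passed in limma, also at an unadjusted p under 0.05 and with limma voom. In the γδ T cell and innate lymphoid list, Il7r and Il1rl1 were higher with vehicle than in PBS (fold changes 0.72 and 0.55, limma adjusted p = 0.0409 and 0.0351), and Il1rl1 also with GGsTop (0.78, limma adjusted p = 0.0453), whereas Rora did not pass. After GC correction these were 0.25, 0.22 and 0.69 (limma adjusted p = 0.396, 0.403 and 0.0662), and with the replicate block the last was 0.77 (limma adjusted p = 0.0727). Trdc and Tcrg-C1 were not analysed here. Of the neutrophil markers, Csf3r fell with vehicle against PBS (−0.86, limma adjusted p = 0.0456), but not after GC correction (−0.63, limma adjusted p = 0.124), and S100a9 and Retnlg, the highest, did not pass. Of the macrophage markers, C1qa rose with vehicle (0.66, limma adjusted p = 0.0214), C1qb did not pass (0.45, limma adjusted p = 0.181) until GC correction (0.81, limma adjusted p = 0.0314), and Csf1r fell with vehicle against PBS by 0.61 (limma adjusted p = 0.0151) and was higher with GGsTop than with vehicle by 0.61 (limma adjusted p = 0.0351), which became −0.36 and 0.44 after GC correction (limma adjusted p = 0.0774 and 0.0790). In the mast cell and basophil list, Ms4a2 rose with vehicle (0.65, limma adjusted p = 0.00875), and Cpa3 fell with GGsTop against vehicle (−0.72, limma adjusted p = 0.0292), whereas Mcpt4 did not pass. After GC correction Ms4a2 was at 0.069 and Cpa3 at −0.42 (limma adjusted p = 0.744 and 0.0671). In airway epithelium, Foxj1 was higher than in PBS with vehicle and with GGsTop (1.41 and 1.78, limma adjusted p = 0.00416 and 0.00965) and Epcam with vehicle (0.60, limma adjusted p = 0.0209), whereas Scgb1a1 and Cdh1 did not pass. Smooth muscle and cartilage genes, with Acta2 and Myh11 the highest, had 0 called in limma (0, 1 and 0 at an unadjusted p under 0.05) and 0 with limma voom. The genes with a call on the marker lists other than the highest were named after their values were seen.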

How the data were processed

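Poly-A RNA was sequenced on a NovaSeq by a service company. The submitters' processing notes name cutadapt 1.15, HISAT2 2.0.5, HTSeq 0.9.1 and mm39, without their roles or an annotation. The authors deposited a single table of FPKM, in which fragments are scaled by exon length and library total. The study tested counts, which were not used here.

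Symbols and printed positions come from GENCODE M21 (GRCm38), which held 21795 of the 21899 identifiers. Where 26 symbols were shared, the identifier with the highest mean kept the symbol. FPKM times merged exon length gave whole fragments, within 0.02 fragments or 0.0001 of the value, in all libraries for 21377 genes (97.6%).

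Libraries were grouped by their labels. For the 14004 genes whose FPKM averaged 0.5 or more, log2(FPKM + 1) in all 11 libraries entered 1 model in limma 3.58.1 (R 4.3.3) with a mean-variance trend, two-sided tests and Benjamini-Hochberg adjustment over all genes. Such fold changes understate those of low genes. Adjusted p under 0.05 made a call. Genes below the minimum were compared by exact two-sided permutation tests (scipy 1.17.1), which cannot go below 0.0286 for 4 against 4 libraries. The GC correction subtracted a natural spline with 5 degrees of freedom, fitted in each library to deviations from the gene means. Other tools were numpy 2.4.6, pandas 2.3.3, matplotlib 3.10.9 and Python 3.11.15. The fit was tested on simulated data.

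The 10 genes, the 9 lists of other cytotoxic genes (85 genes, 82 matched), the 11 marker lists and the GC correction were chosen with earlier results of these data known. Named were the 10 genes, list genes called in any comparison and otherwise the 2 of highest mean FPKM per list, and the 8 genes most correlated with Gzma and with the mean of the 6 genes fitted.

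PBS and OVA/LPS/GGsTop libraries share the numbers 1 to 3. Deviations from the group means correlated by 0.158, 0.624 and 0.401 for equal numbers, all over 0.1, so the numbers were taken to pair the libraries, although PBS 1 correlated by 0.419 with OVA/LPS/GGsTop 3. The labels do not say what a number marks. A fit with the number as a replicate block was therefore an alternative, beside a pseudocount of 0.1, a minimum of 1 FPKM or none, 2 other scalings, no trend, array weights, only the 2 groups compared, limma voom on recovered fragments and each library left out in turn.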

Additional observations from a re-analysis of the deposited data

Results flagged for a closer look

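Among 46 sets of 4 libraries that were checked for a library far from the rest, 2 were marked, and chance marks about 5% of such sets. Gzmb in the OVA/LPS/Vehicle group was highest in library 12, at 2.156 FPKM against 0.8811 FPKM in the next library. This is the library with thymocyte genes, and without it the fold change of Gzmb against PBS was −0.86 in place of −0.65. Klrb1c in the same group was lowest in library 78, at 0.1213 FPKM against 0.1483 FPKM in the next, which rested on 6 and 7 fragments.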

How the results depend on the processing

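With deposited FPKM, 2, 2 and 3 of the 6 fitted genes were called in vehicle against PBS, GGsTop against vehicle and GGsTop against PBS, and 11, 6 and 6 of 54 other cytotoxic genes. With each library left out these became 1 to 2, 0 to 2, 1 to 4, 7 to 14, 0 to 7 and 0 to 9. Without OVA/LPS/GGsTop 1 the number in GGsTop against vehicle was 0 of the 6 (2 at an unadjusted p under 0.05 in limma), and 1 without OVA/LPS/Vehicle 12, 34 or 56 or OVA/LPS/GGsTop 2, 3 or 4. Without PBS 1 it was 1 of the 6 in GGsTop against PBS. Over all genes, GGsTop against vehicle had 4 lower and 20 higher without OVA/LPS/GGsTop 1, in place of 254 and 966. GGsTop against PBS had 8 and 21 without PBS 1, in place of 115 and 288. Array weights gave 6 of the 6 in both PBS comparisons and 28, 10 and 15 of the other genes. Of all 14004 genes, array weights called 4473 lower and 3443 higher, 1982 and 3232, and 1178 and 1379 in the 3 comparisons. With only the 2 groups compared, 1 of the 6 was called in vehicle against PBS, and 0 other genes in GGsTop against PBS (17 at an unadjusted p under 0.05). That fit called 9 lower and 30 higher over all genes in GGsTop against PBS. Without a minimum level there were 1 of the 6 in GGsTop against vehicle and 2 other genes in GGsTop against PBS. GC correction left 1 of the 6 and 0 other genes (9 at an unadjusted p under 0.05) in GGsTop against vehicle and gave 10 other genes in GGsTop against PBS, and limma voom called 1 of the 6 in GGsTop against vehicle. Over all genes, GC correction left 60 lower and 251 higher in GGsTop against vehicle, and gave 188 lower and 421 higher in GGsTop against PBS. The replicate block left 0 of the 6 and 0 other genes called in GGsTop against PBS (5 and 16 at an unadjusted p under 0.05), and over all genes 16 lower and 46 higher in place of 115 and 288. No other comparison had a block. Of the marker genes named there, Il1rl1 lost its call and Foxj1 kept it (1.55, limma adjusted p = 0.0292). Beyond what is stated, the causes were not tested.

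Some signs changed, also that of 1 called value. In vehicle against PBS, Klrd1 was at 0.054 with limma voom in place of −0.10. After GC correction Klri1 was at −0.36 in place of 0.16, and Zeb2, which was called, at −0.087 in place of 0.38. With libraries left out Gzma ran from −0.21 to 0.0064 and Klrd1 from −0.66 to 0.33. In GGsTop against vehicle, Ctsw was at 0.027 with array weights and −0.28 to 0.0072 with libraries left out, and Il2rb at 0.0095 with array weights, 0.014 at the same FPKM total and −0.16 to 0.050 with libraries left out. In GGsTop against PBS, Cd226 was at 0.030 with limma voom and 0.053 with the replicate block, and with libraries left out Cd226 ran from −0.22 to 0.086, Klrd1 from −0.97 to 0.020 and Stxbp2 from −0.23 to 0.046. Of 1084 values of single tested genes under alternatives, leaving out the 10 genes in GGsTop against vehicle and the 4 outside the fit, 886 kept their direction and side of the threshold. Rescaling to the same FPKM total moved the median of all genes from −0.01 to −0.15 in vehicle against PBS and from 0.03 to 0.11 in GGsTop against vehicle, with 4570 lower and 1232 higher genes in the former (3096 and 2231 as deposited) and 155 lower and 2026 higher in the latter (254 and 966). Rescaling to the same median gave 407 lower and 384 higher there. Counting error limits Klrb1c, Fasl, Eomes and Gzmb, which rested on 4 to 56 fragments per library.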
